A study of Homo sapiens with 6 samples.

Results

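The 10 genes described here encode core regulators of apoptosis of the BCL2 family. They were taken by gene symbol from the table of 24526 genes, and all 10 were found there and were among the 16297 genes tested. The members were the anti-apoptotic genes BCL2, BCL2L1, BCL2L2, MCL1 and BCL2A1, the pore-forming effectors BAX and BAK1, and the BH3-only genes BCL2L11, BID and BMF. Transcripts were counted in WM266.4 cells, an established human melanoma cell line, which were transfected with a RIPK4-specific siRNA (RIPK4.si) or with a negative control siRNA (neg.si, named control.si in the labels) and taken 48 h later. Such an siRNA is a small RNA duplex, one strand of which guides the cell's silencing complex to matching transcripts. There were 3 libraries in each group and 6 in all, each from one cell line, one RIPK4 siRNA and one control siRNA. Every culture therefore carried a transfected siRNA, and an effect of this one RIPK4 siRNA on other transcripts cannot be told apart from the effect of less RIPK4. The study describes the libraries of a group as biological replicates from independent experiments, and neither it nor the labels say whether a replicate number marks the same experiment in both groups. The p-values measure the spread between these libraries.

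Proteins of the BCL2 family decide whether the outer mitochondrial membrane stays intact. BAX and BAK1, once activated, open pores in that membrane and let cytochrome c escape, which starts the caspase cascade. The anti-apoptotic members hold BAX, BAK1 and the BH3-only proteins in inactive complexes, and the BH3-only proteins, which carry stress and death signals, free or activate the effectors. MCL1 is known for the short life of its transcript and protein, and in the melanocyte lineage BCL2 and BCL2A1 are known targets of the transcription factor MITF.

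The silenced gene was lower in the RIPK4.si libraries. RIPK4, a receptor-interacting serine/threonine kinase at chr21:41739369-41767089, had 85.8, 76.5 and 54.7 CPM in neg.si replicates 1 to 3, in that order, and 19.9, 16.7 and 21.5 CPM in RIPK4.si. Values of a group are given in the order of its replicates 1, 2 and 3 throughout. CPM is the count of read pairs on a gene after every library is scaled to 1000000 by its TMM-normalized size. Its log2 fold change, RIPK4.si over neg.si, was -1.90 (SE 0.203, adjusted p-value 0.0102), so that 26.8% of the neg.si level remained. The adjusted p-value was 0.106 without neg.si replicate 2 and 0.0940, 0.0622 and 0.0725 without RIPK4.si replicate 1, 2 or 3, so the call was lost in 4 of the 6 fits that left out a library. Counts on genes summed to between 28464057 and 31688095 per library, and mitochondrial genes took between 9.61% and 13.4% of them. A member had between 291 counts (BCL2, neg.si replicate 1) and 11684 counts (MCL1, neg.si replicate 3) in a library. The melanocytic identity of the cells was visible in both groups, with 8 of 8 melanocytic markers present in every library and a summed level of 3573.5 to 4012 CPM in neg.si and 2635 to 2759 CPM in RIPK4.si. One of these 8, the melanosome protein gene PMEL, fell (280.0 CPM ± 31.5 in neg.si and 113.6 CPM ± 8.11 in RIPK4.si, SD, n = 3, log2 fold change -1.30, adjusted p-value 0.0111). The PMEL call was lost without neg.si replicate 2 or any 1 RIPK4.si library, with an adjusted p-value of up to 0.129. DESeq2 called 3 of the 8, PMEL, TYR and DCT, and the RIPK4.si libraries lay below all neg.si libraries for the same 3, beside 2.91% of all genes called by DESeq2, 0.767% called by edgeR and 17.6% with groups that did not overlap. TYR was at 1348 CPM ± 112.1 in neg.si and 910.7 CPM ± 36.1 in RIPK4.si, and DCT at 699.6 CPM ± 100.9 and 422.5 CPM ± 13.6 (SD, n = 3), with edgeR adjusted p-values of 0.148 and 0.0854. The log2 fold change of TYRP1 was 0.36 (edgeR adjusted p-value 0.502). S100B was at 703.5 CPM ± 152.6 in neg.si and 504.9 CPM ± 62.3 in RIPK4.si (SD, n = 3). Its groups overlapped (log2 fold change -0.48, edgeR adjusted p-value 0.391). For MITF, SOX10 and MLANA the log2 fold changes were 0.04, -0.15 and 0.06. At an unadjusted p-value under 0.05, edgeR had 4 of the 8 lower and 0 higher, beside 10.8% of all genes. Of the markers of other cell types, KRT10 was at a level like that of BCL2 and BMF and the rest were near 0. The keratinocyte markers KRT5, KRT14 and KRT10 summed to 10.2 to 11.6 CPM in neg.si and 11.8 to 16.1 CPM in RIPK4.si, nearly all of it KRT10, whose groups did not overlap, and the fibroblast, immune and endothelial lists each stayed under 2 CPM in every library. The fibroblast sum was 0.441 to 1.03 CPM in neg.si and 1.13 to 1.81 CPM in RIPK4.si, without overlap. The immune and endothelial sums overlapped between the groups.

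The sequences shown here are stretches of the 3' UTRs of MCL1 and BCL2L1 that hold the bases ACAGCTT. They are shown because MCL1, the member that fell, has 3 copies. The letters were picked out in an earlier analysis of these same libraries, in which transcripts holding them tended to be lower in RIPK4.si, so their presence is a description and no independent evidence. Each line gives 27 bases of GRCh38 in the direction of the transcript, 5' to 3', with the annotation of GENCODE release 44, and ACAGCTT is in capitals. All 3 MCL1 sites lie in exon 4 of 4 of transcript ENST00000678610.1, on the minus strand of chromosome 1. Site 1 (chr1:150576693-150576719) begins its ACAGCTT 666 bases after the stop codon, site 2 (chr1:150576549-150576575) 810 bases after it and site 3 (chr1:150575791-150575817) 1568 bases after it. The site of BCL2L1 (chr20:31667049-31667075, minus strand) is in exon 3 of 4, 44 bases after the stop codon.
MCL1 site 1: aattcttaagACAGCTTgtaaatgtat
MCL1 site 2: cctgtttcttACAGCTTttctatgcta
MCL1 site 3: atcaattcctACAGCTTtcccctgcca
BCL2L1 site 1: cctcagaggcACAGCTTcttggcctgt

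With RIPK4 silenced, 1 of the 10 members, MCL1, was called lower and 0 were called higher. A gene is called here when its adjusted p-value from edgeR's quasi-likelihood test, corrected by the Benjamini-Hochberg method over all 16297 genes, is under 0.05. Over all genes tested, 125 were called, which is 0.767%, and 64 of them fell, which is 0.393%. At an unadjusted p-value under 0.05, again 1 of 10 members passed, against 10.8% of all genes tested. The 3 RIPK4.si libraries lay outside the range of the 3 neg.si libraries for 1 of 10 members, against 17.6% of all genes, and the groups overlapped for the other 9. DESeq2 also called 1 of the 10 members, against 2.91% of the 15015 genes for which it gave an adjusted p-value. The median log2 fold change was -0.02 over the members and -0.02 over all genes tested. The median size of the change, without its sign, was 0.11 over the members and 0.19 over all genes, and it was 0.086 over the 9 members without MCL1.

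MCL1, which binds BAK1 and BH3-only proteins and is lost quickly when its synthesis stops, fell to 47.0% of its neg.si level. MCL1 (ENSG00000143384.13, chr1:150574551-150579738, minus strand) had 7133, 8383 and 11684 counts in the neg.si libraries and 3967, 3853 and 4462 counts in the RIPK4.si libraries. On the normalized scale these were 230.3, 279.1 and 367.8 CPM in neg.si and 135.2, 133.4 and 143.5 CPM in RIPK4.si. All 3 RIPK4.si libraries were below all 3 neg.si libraries, and the spread was wide in neg.si (292.4 CPM ± 69.7, SD, n = 3) and narrow in RIPK4.si (137.3 CPM ± 5.38, SD, n = 3). The log2 fold change was -1.09 (SE 0.187, 95% confidence interval -1.51 to -0.67), a ratio of 0.470 with an interval of 0.351 to 0.629. The adjusted p-value of edgeR's quasi-likelihood test was 0.0397 and the gene had rank 89 by p-value among the 16297. In RNA from whole cultures, fewer cells with the transcript and less of it per cell cannot be told apart. MCL1 shares 328 of its 6222 exon bases with ADAMTSL4-AS1, which had at most 8 counts in a library, and 43 with ADAMTSL4, which had between 31 and 52. The melanocytic marker sum was lower in RIPK4.si, as MCL1 was, and the KRT10 level was higher there, and the part of either in the MCL1 value was not tested.

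**Figure D1:**
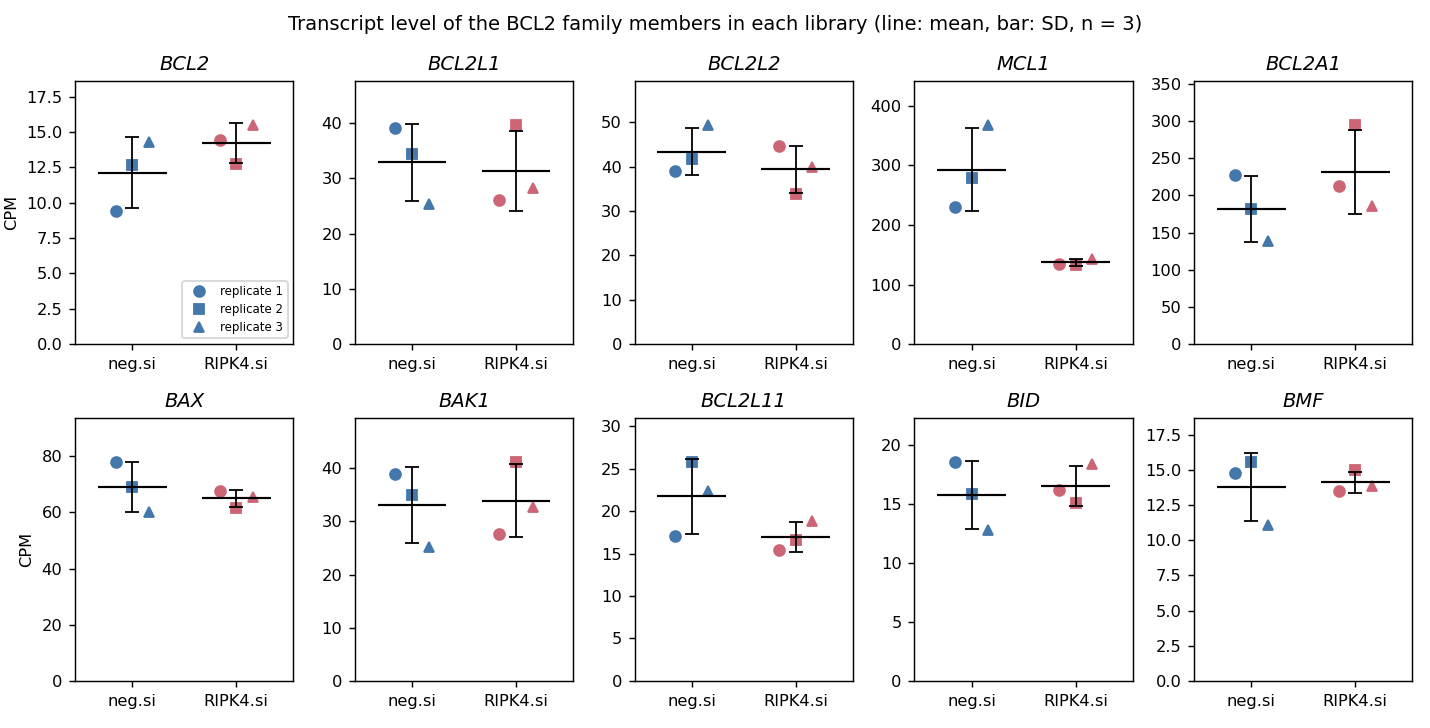
Transcript level in CPM (vertical axis, each panel from 0 on its own scale) of the 10 members in 3 neg.si and 3 RIPK4.si libraries, with symbols for the replicate number, a line at the mean and a bar for the SD. The MCL1 points of RIPK4.si lie between 133.4 and 143.5 CPM, all under the lowest neg.si point of 230.3 CPM, and in each of the other 9 panels the groups overlap.

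The call of MCL1 needed each of the 3 RIPK4.si libraries and neg.si replicate 2. Its log2 fold change was below 0 in 14 of 14 alternatives and lay between -1.22 and -0.89 over them, and its unadjusted p-value was under 0.05 in 14 of 14. As the groups did not overlap for MCL1, its sign in fits without 1 library restates that separation. MCL1 was called in 10 of 14. DESeq2 gave a log2 fold change of -1.07 with an adjusted p-value of 3.68e-05. Once the trend of every library with GC content was taken out, edgeR's adjusted p-value was 0.00774 with a log2 fold change of -1.04. With 1 library left out the call was lost in 4 of 6 fits, without neg.si replicate 2 (edgeR adjusted p-value 0.251), RIPK4.si replicate 1 (0.195), RIPK4.si replicate 2 (0.149) or RIPK4.si replicate 3 (0.246). Over all genes, those fits called 0, 0, 4 and 0 genes in that order, beside 125 with all 6 libraries. Without neg.si replicate 3, the library with the highest MCL1 level, the log2 fold change was -0.89 and the adjusted p-value 0.0176.

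**Figure D2:**
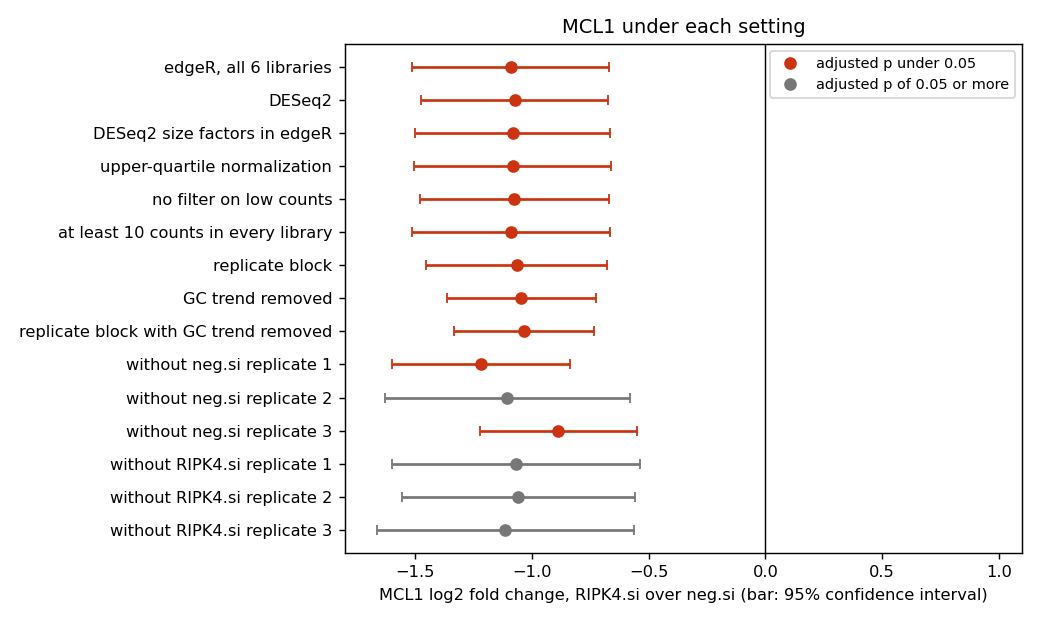
Log2 fold change of MCL1, RIPK4.si over neg.si (horizontal axis), in the fit of all 6 libraries and under 14 alternatives, with bars for the 95% confidence interval and colour for an adjusted p-value under 0.05 or not. Every point lies between -1.22 and -0.89 and every interval is below 0, while 4 of the 6 fits that leave out a library have an adjusted p-value of 0.05 or more.

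The other 4 anti-apoptotic members did not pass the test. BCL2A1, a small member induced by NF-kB and by MITF, had 226.9, 181.1 and 138.3 CPM in neg.si and 212.8, 294.6 and 186.2 CPM in RIPK4.si. Its mean was 182.1 CPM ± 44.3 in neg.si and 231.2 CPM ± 56.5 in RIPK4.si (SD, n = 3). RIPK4.si replicate 2 was the highest of the 6 libraries, the other RIPK4.si values lay within the neg.si range, and the log2 fold change of 0.34 had a 95% confidence interval of -0.17 to 0.86 (edgeR adjusted p-value 0.703). BCL2, the founding member of the family, had 9.40, 12.7 and 14.3 CPM in neg.si and 14.4, 12.7 and 15.5 CPM in RIPK4.si. The groups overlapped, with neg.si replicate 1 lowest, and the log2 fold change was 0.23 with an interval of -0.22 to 0.68 (edgeR adjusted p-value 0.808).

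BCL2L1, which encodes BCL-XL and its short pro-apoptotic splice form, had 39.1, 34.4 and 25.4 CPM in neg.si and 26.0, 39.7 and 28.4 CPM in RIPK4.si. Both groups covered almost the same range, and the log2 fold change was -0.07 (interval -0.57 to 0.42, edgeR adjusted p-value 0.968). BCL2L1 shares 1735 of its 4197 exon bases with ABALON on the opposite strand, and because strand was ignored in counting, reads there could not be assigned by strand. BCL2L2, which encodes BCL-W, had 39.1, 41.7 and 49.4 CPM in neg.si and 44.6, 34.0 and 39.8 CPM in RIPK4.si. These also overlapped, with a log2 fold change of -0.14 (interval -0.52 to 0.24, edgeR adjusted p-value 0.884), and 815 of its exon bases belong also to the readthrough gene BCL2L2-PABPN1. The intervals leave room for changes of these 4 genes up to the bounds given, and an interval that spans 0 does not show that a level was the same.

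The effectors had closely similar means in the 2 groups. BAX, whose protein moves from the cytosol to the mitochondria when activated, had 78.0, 68.9 and 60.0 CPM in neg.si and 67.7, 61.7 and 65.6 CPM in RIPK4.si. The RIPK4.si values lay inside the neg.si range, and the log2 fold change was -0.09 (interval -0.43 to 0.25, edgeR adjusted p-value 0.929). BAK1, whose protein sits in the outer mitochondrial membrane and is held there by MCL1 and BCL-XL, had 39.0, 34.9 and 25.1 CPM in neg.si and 27.7, 41.2 and 32.6 CPM in RIPK4.si. The groups overlapped over nearly their whole range, and the log2 fold change was 0.04 (interval -0.45 to 0.52, edgeR adjusted p-value 0.981).

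None of the 3 BH3-only members passed the test. BCL2L11, which encodes BIM, an activator bound by all anti-apoptotic members, had 17.1, 25.8 and 22.4 CPM in neg.si and 15.4, 16.6 and 18.8 CPM in RIPK4.si. Only neg.si replicate 1 was within the RIPK4.si range, and the log2 fold change of -0.36 had an interval of -0.79 to 0.07 (edgeR adjusted p-value 0.577). BCL2L11 shares 727 exon bases with MIR4435-2HG on the opposite strand. BID, which links death receptors to mitochondria once cut by caspase-8, had 18.6, 15.9 and 12.8 CPM in neg.si and 16.2, 15.1 and 18.4 CPM in RIPK4.si. The log2 fold change of BID was 0.07 (interval -0.35 to 0.49, edgeR adjusted p-value 0.961), with the RIPK4.si libraries inside the neg.si range. BMF, whose protein is tethered to the cytoskeleton in healthy cells, had 14.8, 15.6 and 11.05 CPM in neg.si and 13.5, 14.95 and 13.8 CPM in RIPK4.si, also inside the neg.si range, with a log2 fold change of 0.03 (interval -0.38 to 0.44, edgeR adjusted p-value 0.981).

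**Figure D3:**
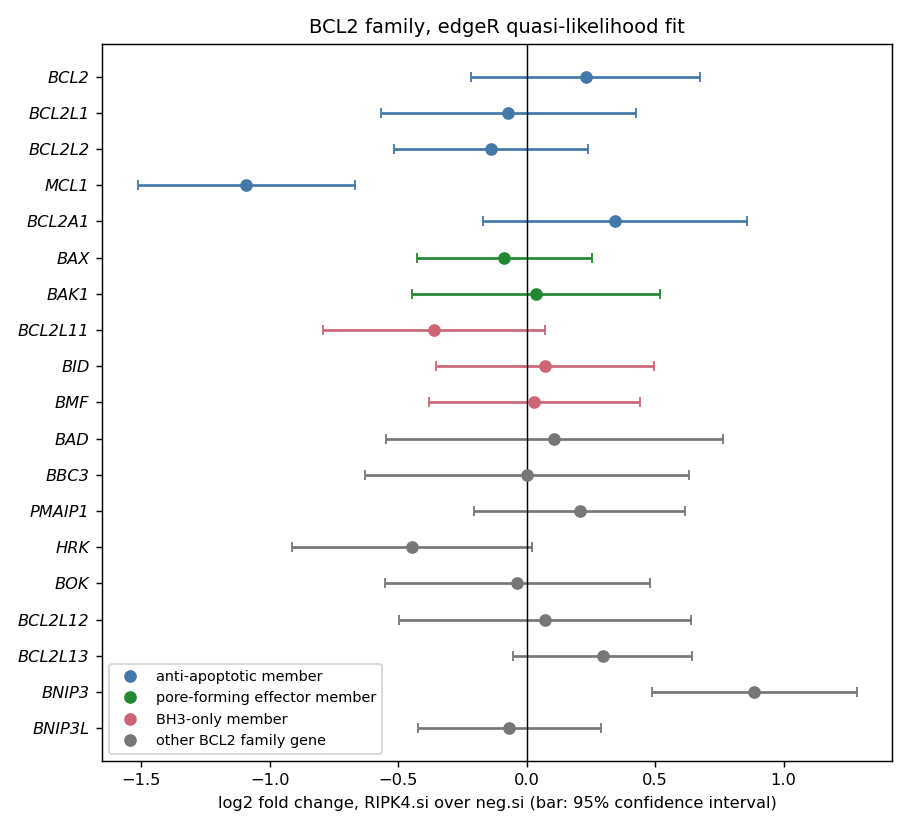
Log2 fold change, RIPK4.si over neg.si, of the 10 members and of the 9 tested genes of the wider BCL2 family, with bars for the 95% confidence interval of edgeR's quasi-likelihood fit and colours for the role. Among the members the interval of MCL1 (-1.51 to -0.67) is the one that does not span 0, and among the wider family it is that of BNIP3 (0.49 to 1.28).

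In the wider BCL2 family, 0 of 9 tested genes were called by edgeR's adjusted p-value, 1 passed at an unadjusted p-value under 0.05 and DESeq2 called 1, beside 0.767%, 10.8% and 2.91% of all genes. That gene was BNIP3, a mitochondrial protein with a BH3-like stretch that acts in mitophagy and is induced in hypoxia. It had 193.5, 180.8 and 148.3 CPM in neg.si and 284.6, 383.3 and 298.4 CPM in RIPK4.si. Each RIPK4.si library was above each neg.si library, and the ratio of the fit was 1.85 (log2 fold change 0.89, SE 0.176), with an adjusted p-value of 0.0651 by edgeR, 0.00145 by DESeq2 and 0.0205 by edgeR after removal of the GC trend. Over all alternatives it ranged from 0.00145 to 0.331. The groups did not overlap for 2 of the 9 genes, beside 17.6% of all genes, and the other was BCL2L13, also a mitophagy receptor (171.1 CPM ± 23.7 in neg.si and 210.0 CPM ± 11.4 in RIPK4.si, SD, n = 3, edgeR adjusted p-value 0.561). The p53-driven BH3-only genes gave no call, with log2 fold changes of 0.21 for PMAIP1 and -0.00 for BBC3, and neither did BAD (0.11), HRK (-0.45), BOK (-0.04), BCL2L12 (0.07) or BNIP3L (-0.07). BIK, BCL2L10, BCL2L14 and BCL2L15 had between 0 and 6 counts in a library and were not tested.

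The genes that act above and below the family were read from 4 lists of 39 genes, 38 of which were tested, and 0 were called by edgeR. At an unadjusted p-value under 0.05 there were 2 of the 38 that were lower and 0 that were higher, and DESeq2 called 1. The shares over all genes were 0.767% called by edgeR, 10.8% at an unadjusted p-value under 0.05 and 2.91% called by DESeq2. One of the lower genes was FOXO1, a transcription factor that drives BCL2L11 (19.4 CPM ± 3.28 in neg.si and 14.4 CPM ± 1.62 in RIPK4.si, SD, n = 3, log2 fold change -0.43, edgeR adjusted p-value 0.435).

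Each of the 4 lists had a median log2 fold change between -0.15 and 0.04, beside -0.02 for all genes. It was 0.03 over the 13 tested genes of the apoptosome and the mitochondrial membrane, which include APAF1, CYCS and the VDAC channels, and 0.04 over the 7 genes from death receptors to BID. It was -0.08 over the 7 genes for partners of the members and for factors that stabilize or destroy them, such as the MCL1 ubiquitin ligases HUWE1 and FBXW7 and the deubiquitinase USP9X. It was -0.15 over the 11 transcription regulators, which include MITF at 347.7 CPM ± 53.2 in neg.si and 357.9 CPM ± 17.1 in RIPK4.si (SD, n = 3, log2 fold change 0.04, edgeR adjusted p-value 0.975). No VDAC, death receptor or MCL1 ubiquitin ligase gene had groups that were apart, while FOXO1 and NFKB1 were among the 3 of 38 genes whose groups did not overlap, beside 17.6% of all genes.

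To compare the members with one another, counts were divided by the exon bases that a gene shares with no other gene and scaled to a sum of 1000000 (TPM). BCL2A1 was the most abundant member in both groups, at 565.0 TPM ± 97.1 in neg.si and 702.8 TPM ± 104.5 in RIPK4.si. In neg.si it was followed by MCL1 (157.6 TPM ± 53.2), BAX (82.9 TPM ± 5.40), BAK1 (48.04 TPM ± 6.51), BCL2L1 (41.4 TPM ± 5.44) and BCL2L2 (37.6 TPM ± 8.43). The low members in neg.si were BCL2L11 (11.3 TPM ± 2.57), BID (11.1 TPM ± 1.22), BMF (8.57 TPM ± 0.781) and BCL2 (3.04 TPM ± 0.876), all with n = 3. Neighbours in this order whose libraries overlapped, and which are therefore not ordered beyond their spread, were BAK1 with BCL2L1, BCL2L1 with BCL2L2, and BCL2L11 with BID. BCL2 was thus the least abundant member on this scale, and the anti-apoptotic transcripts were mostly those of BCL2A1 and MCL1. The place of BCL2A1 above MCL1 in neg.si depends on the exon bases used, 995 for BCL2A1 and 5894 for MCL1. In CPM, the mean of MCL1 was above that of BCL2A1 in neg.si (292.4 and 182.1). It was below that of BCL2A1 in RIPK4.si (137.3 and 231.2).

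In RIPK4.si MCL1 moved from rank 2 to rank 3, below BAX. MCL1 had 115.3, 140.1 and 217.3 TPM in neg.si and 77.7, 60.8 and 76.6 TPM in RIPK4.si. BAX stood at 77.5 TPM ± 12.5 in RIPK4.si, and its libraries overlapped there with those of MCL1 (71.7 TPM ± 9.48), while in neg.si every MCL1 value was above every BAX value. The lowest ranks in RIPK4.si were BID (11.6 TPM ± 2.11), BMF (8.66 TPM ± 0.571), BCL2L11 (8.65 TPM ± 1.21) and BCL2 (3.48 TPM ± 0.668), with overlap between BID and BMF and between BMF and BCL2L11.

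The make-up of the family was described by the share of each member in the summed TPM, with no test. The summed level of the 10 members was 966.5 TPM ± 66.0 in neg.si and 1005 TPM ± 91.0 in RIPK4.si (SD, n = 3). The anti-apoptotic members took 83.4%, 82.5% and 83.8% of it in neg.si and 84.4%, 86.8% and 82.2% in RIPK4.si, which overlap. MCL1 took 13.3%, 18.5% and 27.6% of the anti-apoptotic TPM in neg.si and 8.80%, 6.56% and 10.3% in RIPK4.si. BCL2A1 took 77.4%, 71.1% and 61.4% in neg.si and 82.0%, 85.8% and 79.6% in RIPK4.si. For both shares the 3 RIPK4.si libraries were outside the neg.si range, below it for MCL1 and above it for BCL2A1. The shares sum to a fixed total, so that a lower share of MCL1 raises that of BCL2A1, whose own level did not pass the test.

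Ratios within a library are given next, also with no test. There were 5.83, 3.84 and 2.23 BCL2A1 transcripts per MCL1 transcript, per exon length, in neg.si and 9.32, 13.1 and 7.69 in RIPK4.si. The ratio of MCL1 to BCL2L11, an inhibitor and one of its ligands, was 13.8, 11.02 and 16.8 in neg.si and 8.94, 8.19 and 7.78 in RIPK4.si. In neither ratio did the groups overlap, and both contain the MCL1 value already described. The spread of the first ratio in neg.si was large, from 2.23 in replicate 3 to 5.83 in replicate 1, and BCL2A1 and MCL1 ranked the 3 neg.si libraries in opposite order.

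**Figure D4:**
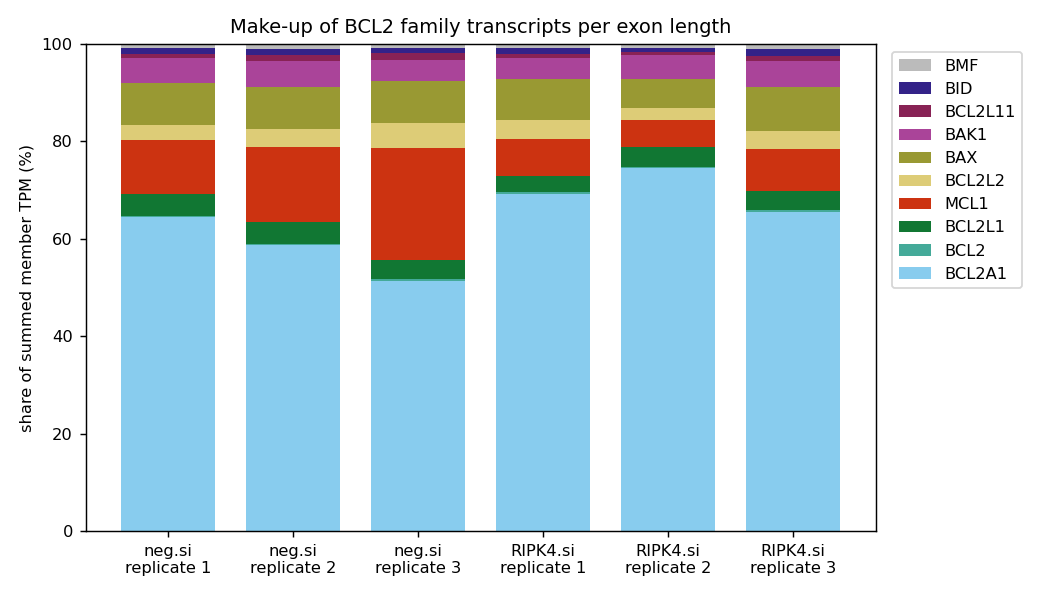
Share of the summed TPM of the 10 members (vertical axis, percent) in each of the 6 libraries, stacked by member. The MCL1 band takes 11.1% to 23.1% of a neg.si bar and 5.69% to 8.51% of a RIPK4.si bar, and the BCL2A1 band takes 51.4% to 64.6% and 65.4% to 74.5%.

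Opposite orders of the neg.si libraries were seen in 8 of the 10 members. The 5 genes BCL2L1, BCL2A1, BAX, BAK1 and BID were highest in neg.si replicate 1 and lowest in neg.si replicate 3, while the 3 genes BCL2, BCL2L2 and MCL1 were highest in replicate 3 and lowest in replicate 1. BCL2L11 and BMF followed neither order and were highest in replicate 2. Over all tested genes, the level in a library relative to the other libraries varied with GC content, with a Spearman correlation of 0.55 in neg.si replicate 1, 0.08 in replicate 2 and -0.55 in replicate 3, given as a description over genes that share each library. It lay between -0.08 and 0.16 in the RIPK4.si libraries. The GC content of a gene's longest annotated transcript was 40.9% to 58.9% in the first 5 genes and 44.7% to 52.3% in the other 3, with 44.7% for MCL1 and 40.9% for BCL2A1, beside a median of 47.9% over tested genes. The part of GC content in the neg.si spread of a single member was not tested, and MCL1 without the GC trend is given above.

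Of the members, MCL1 held 3 copies of ACAGCTT in its longest annotated 3' UTR, which has 3199 bases, BCL2L1 and BCL2L2 held 1 copy each, and the other 7 held 0. The letters were searched on the transcript strand only. Among 12991 tested genes with a 3' UTR, 18.4% had at least 1 copy and 71 genes, or 0.547%, had 3 or more. Because these letters were picked for lower levels in the same libraries, the medians and the counts of called genes by copy number restate that choice. They are given as a description. The median log2 fold change was -0.00 over the 10605 genes without a copy, -0.08 over the 1939 with 1 copy, -0.12 over the 376 with 2 and -0.20 over the 71 with 3 or more. Longer 3' UTRs hold more copies, with a median length of 1570 bases without a copy and 6672 bases with 3 or more, and the part of length in these medians was not tested. Of the 71 genes with 3 or more copies, 2 had a lower log2 fold change than MCL1, 1 was called lower (MCL1) and 0 were called higher, beside 0.767% of all genes called and 0.393% called lower. Among the 10605 genes without a copy, 35 were called lower and 53 higher, and among the 2386 with at least 1 copy, 23 were called lower and 6 higher. The log2 fold changes of BCL2L1 (-0.07) and BCL2L2 (-0.14), each with 1 copy, lay near the median of -0.08 for such genes, and BCL2L11, with a change of -0.36, has 0 copies in a 3' UTR of 4213 bases. The sequence of the siRNA was not given in the sources used here, so a pairing of it with these sites was not tested.

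**Figure D5:**
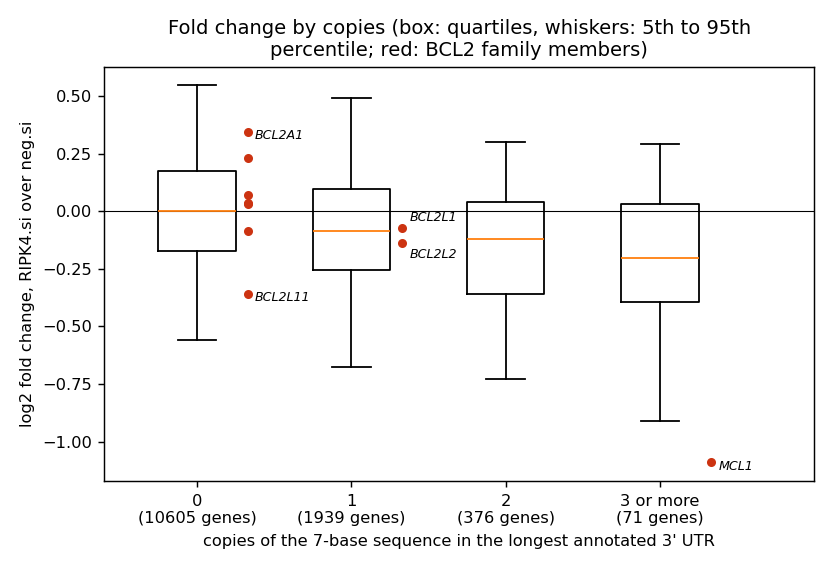
Log2 fold change, RIPK4.si over neg.si (vertical axis), of tested genes by the number of copies of the 7-base sequence in the longest annotated 3' UTR, with boxes for the quartiles, whiskers for the 5th to 95th percentile and red points for the 10 members. Box medians run from -0.00 without a copy to -0.20 with 3 or more, and MCL1 at -1.09 lies under the lower whisker of its group (-0.91). The 7 bases were picked for lower levels in these same libraries, so the order of the boxes is no independent evidence.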

How the data were processed

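Transcripts of 3 neg.si and 3 RIPK4.si libraries of WM266.4 cells were measured. The authors enriched poly(A) RNA, sequenced paired reads on the BGISEQ-500 platform, trimmed with Cutadapt, aligned with TopHat to GRCh38.p13 and used HTSeq, with strand ignored, to count the read pairs of each gene. The deposited counts are whole and not normalized, and each gene has a total of at least 6. The deposited signal values, counts scaled by size factors by the authors, were not used. Further columns hold the authors' fold changes, standard errors, p-values and adjusted p-values and were not used either.

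Counts were tested with edgeR 4.0.16 in R 4.3.3 (TMM, filter on low counts, quasi-likelihood test of group, Benjamini-Hochberg adjustment over all genes tested), and every adjusted p-value is from this test unless DESeq2 1.42.0 is named. SE is the size of the log2 fold change divided by the square root of F. Coordinates, exon lengths and 3' UTRs came from GENCODE release 44, in which 24416 of the gene identifiers were found. Tables and plots were made with Python 3.11.15.

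The alternatives were DESeq2, edgeR with upper-quartile normalization or with DESeq2's size factors, edgeR unfiltered or limited to genes that reached 10 counts in each library, a replicate block, removal of each library's GC trend (lowess, span 0.3), both together, each library left out in turn and, for TPM shares, full exon lengths. The members and lists were chosen with earlier results of these data known. From lists of other genes, called genes and those with no overlap and a ratio of at least 1.5 in either direction were named. Some results that meet this rule, and 1 sequence, are not reported here. BCL2L13, FOXO1, NFKB1, TYR, DCT and other list genes given by value were chosen after their values were seen. In simulated data, 39.8% of genes given a log2 change of 1 and 89.9% of those given 2 were called by edgeR, over 15995 genes.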

Additional observations from a re-analysis of the deposited data

How the results depend on the processing

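Over all genes, the 125 calls became 437 with DESeq2, 534 after removal of the GC trend, 444 with the replicate block and GC removal together, and 0 to 295 with 1 library left out. The count was 0 without neg.si replicate 2 (1153 genes at an unadjusted p-value under 0.05), RIPK4.si replicate 1 (1426 such genes) or RIPK4.si replicate 3 (1086). Members called stood at 0 to 1 and members at an unadjusted p-value under 0.05 at 1 to 3 in the fits that left out a library. Those 3, without neg.si replicate 1, were MCL1, BCL2L11 and BCL2A1, and edgeR's adjusted p-values of the last 2 were 0.273 and 0.338. In the wider family, 1 gene was called by DESeq2, 1 after GC removal and 1 with the block and GC removal together, BNIP3 in each. In the pathway lists DESeq2 called 1. The RIPK4 log2 fold change lay between -2.06 and -1.74 without a library, with an adjusted p-value of up to 0.106, which was over 0.05 without neg.si replicate 2 or any 1 RIPK4.si library. Without a library the sign of the log2 fold change turned for BCL2L1 (-0.27 to 0.086), BAX (-0.17 to 0.028), BAK1 (-0.12 to 0.19), BID (-0.056 to 0.22) and BMF (-0.10 to 0.14), none of them called. The causes of these changes were not tested, and each fit without a library also had fewer samples. The anti-apoptotic share of the summed TPM moved by less than 1 SD with full exon lengths. Leaving out 1 of 3 libraries cannot move a group mean by 1 SD, so nothing is read from that. With a replicate block 131 genes were called and MCL1 had an adjusted p-value of 0.0326. Same-numbered libraries correlated in their deviations from the group means at -0.24, 0.25 and 0.35, and not every library correlated best with its own number. The GC trend was not removed from these deviations, so they cannot decide whether the numbers pair the libraries. The main fit used no pairing. With 3 libraries a group, changes as small as those of most members could not be told from the spread.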
